A study of Homo sapiens with 6 samples.

Results

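The interleukin-6 family and its STAT3 signalling axis was examined in COV434 cells with and without BRG1 reexpression. It was taken as 10 genes: the secreted ligands IL6, LIF, IL11 and CLCF1, the receptor chains IL6R, IL6ST, LIFR and OSMR, the transcription factor STAT3 and the inhibitor SOCS3. The genes were chosen by symbol for their place in the pathway, with earlier results of these data known. The same holds for the lists of further genes used below. All 10 genes were found among the 19899 genes of the deposited table.

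The study counts the established cell line COV434 among its models of SCCOHT, the hypercalcemic type of small cell ovarian cancer, in which BRG1 protein is lost. SMARCA4 encodes BRG1, an ATPase that drives chromatin remodeling by SWI/SNF complexes. Parental cells received the empty plasmid pCDNA3-neo (Control, n = 3) or the BRG1 plasmid PBJ5-BRG1 (BRG1, n = 3), each with the puromycin resistance plasmid pBABE-puro, were put on puromycin at 2 to 3 µg/ml after 24 hours and were harvested after 3 days of selection. The plasmid ratio to pBABE-puro varied between 10 and 6.25 to 1, and which sample received which ratio or dose is not given. Both groups carried the resistance plasmid and were selected for it and not for BRG1 itself, and a share of cells with more RNA cannot be told apart from more RNA in every cell.

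Cytokines of this family signal through the shared receptor chain gp130, which IL6ST encodes. IL6 and IL11 first bind a receptor of their own, whereas LIF pairs gp130 with the LIF receptor, and oncostatin M pairs it with the oncostatin M receptor or the LIF receptor. The paired chains activate JAK kinases, which phosphorylate STAT3, and STAT3 then induces genes that include SOCS3, a feedback inhibitor of the same receptor. In epithelial and tumor tissue the pathway is known for its roles in inflammation, survival and the acute phase response, and messenger RNA levels do not report STAT3 phosphorylation.

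The libraries held between 29699759 and 63613736 estimated counts, and BRG1 sample 3 was the shallowest. SMARCA4 lay between 1439 and 1676 normalised counts in Control samples and at 108655, 79075 and 78589 in BRG1 samples 1 to 3, plasmid transcripts included. The other ATPase gene, SMARCA2, lay between 3.79 and 35.7 in all samples. Of 5 granulosa cell markers, FOXL2 and FSHR had 3 counts or fewer in every library, AMH and INHA were detected and not called, and CYP19A1, which encodes aromatase, was called higher, at 23.3 ± 8.03 normalised counts in Control and 322 ± 115 with BRG1 (SD, n = 3; DESeq2 adjusted p 8.7e-20, edgeR adjusted p 7.2e-04). Of 10 leukocyte markers, 0 were called, and CD3E, CD2 and MS4A1 had 3 counts or fewer in every library. PTPRC lay between 336 and 722 normalised counts in all samples and CD68 between 1180 and 3553. Other genes share 85.6% of the exonic bases of CD68. The list summed to between 1866 and 2874 normalised counts in Control and between 2425 and 3931 in BRG1 samples. Of 5 endothelial markers, 3 (VWF, CDH5 and TEK) were called higher, PECAM1 and KDR were not, and the list summed to between 1731 and 2641 in Control and between 6422 and 6839 in BRG1 samples. Of all tested genes, DESeq2 called 11.0% higher and 1.84% lower. The part of these markers in the results that follow was not tested.

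IL6, LIF and CLCF1, all ligands, rose with BRG1 in the DESeq2 and edgeR fits with and without the replicate number as a block. STAT3 and SOCS3 passed the test only with the block, LIFR only with the block and DESeq2, and IL11, IL6R, IL6ST and OSMR in neither. The counts that follow are without the block. Genes with an adjusted p under 0.05 in the DESeq2 Wald test (Benjamini-Hochberg, over all tested genes) are referred to as called. By that rule 3 of the 10 members were called higher, against 11.0% of all tested genes, and 0 were called lower, against 1.84%. At an unadjusted p under 0.05, 5 members were higher, against 13.4% of all genes with a p, and 1 was lower, against 4.89%. The quasi-likelihood test of edgeR called the same number, 3 higher against 9.57% of its genes and 0 lower against 1.02%. Counting did not use strand, and other genes, antisense ones among them, share 9.91% of the exonic bases of IL6, 6.61% of IL6ST, 5.17% of LIFR, 4.37% of LIF, 3.32% of CLCF1 and 3.19% of OSMR. The median log2 fold change of the members was 0.66, beside -0.01 for all tested genes.

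**Figure D1:**
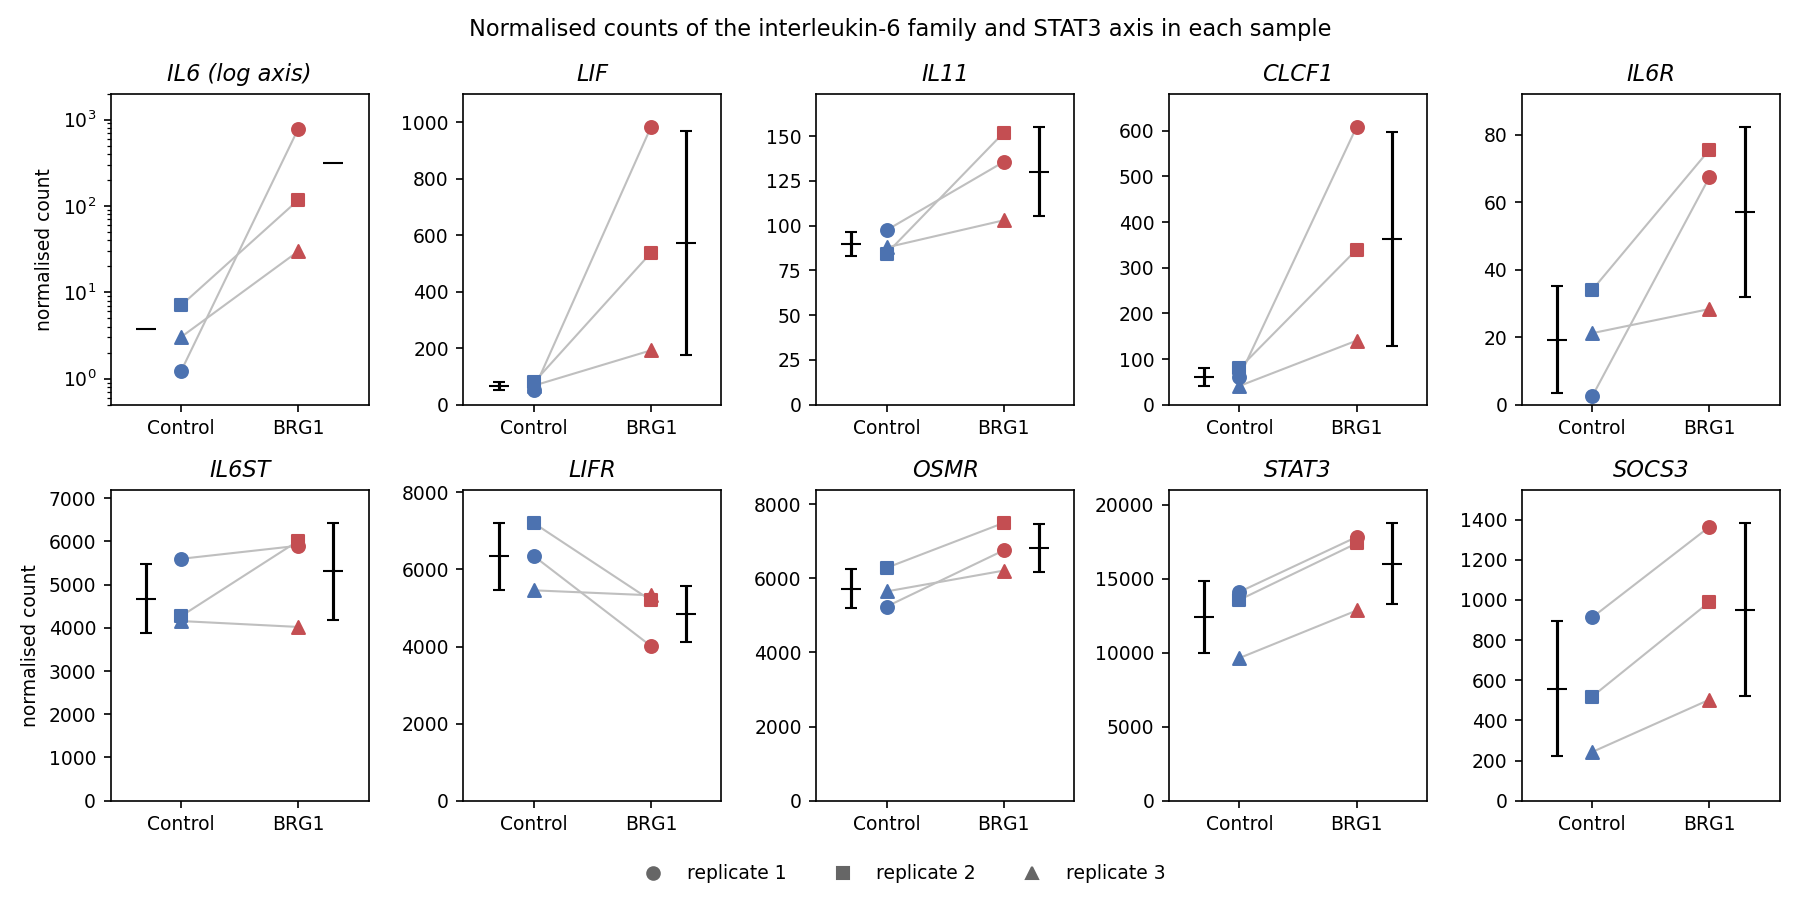
Normalised counts (vertical axes, linear from 0 except for IL6, whose axis is logarithmic) of the 10 members in the 3 Control and 3 BRG1 samples. Grey lines join samples with the same replicate number, and black marks give the mean with the SD (mean only for IL6). IL6, LIF, IL11 and CLCF1 in BRG1 samples all lie above Control, LIFR in BRG1 samples lies below Control, and STAT3 and SOCS3 overlap between groups but rise along every line.

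IL6, the founding cytokine of the family and an inducer of the acute phase response, was almost absent from Control cells. GENCODE release 44 places the gene on the plus strand of chromosome 7, from 22725884 to 22732002 (GRCh38, as for all genes here). Control samples 1 to 3 held 1.22, 7.04 and 3.03 normalised counts, from 1, 6 and 4 estimated counts, and BRG1 samples held 782, 117 and 29.9. The groups did not overlap, but the BRG1 samples differed widely among themselves, with a mean of 310 ± 411 (SD, n = 3). This gave a log2 fold change of 6.37 (SE 1.38, DESeq2 adjusted p 6.4e-05, edgeR adjusted p 0.0206). The log2 fold change was 4.31 without BRG1 replicate 1, 7.15 without Control replicate 2 and 5.10 with the replicate block in DESeq2. Within replicate numbers 2 and 3 the fold was 16.6 and 9.86. In replicate 1 it was 642, with an exact 95% counting interval from 115 to 25377 because the Control sample held 1 count. The call was lost under limma-voom, where the adjusted p was 0.115, and the adjusted p ran from 5.0e-07 to 0.115 over all settings tried.

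The bases before the RefSeq start of IL6 are shown because IL6 had the largest fold change of the members. They span chr7:22726950-22727199 on the plus strand of GRCh38.p14 and are printed 5′ to 3′. The capitals mark the match, at position -73 from the start, to an NF-kappaB site pattern with these letters in which the fifth and the eighth base were left free.

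IL6: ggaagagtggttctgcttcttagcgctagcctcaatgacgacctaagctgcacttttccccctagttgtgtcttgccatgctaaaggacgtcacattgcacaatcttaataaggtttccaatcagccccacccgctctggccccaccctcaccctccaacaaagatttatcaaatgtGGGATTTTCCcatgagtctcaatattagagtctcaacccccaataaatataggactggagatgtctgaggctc

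LIF, a cytokine known for keeping stem cells undifferentiated and for its role at embryo implantation, was already present in Control cells. The gene is on the minus strand of chromosome 22, from 30240453 to 30246759. Its normalised counts were 52.4, 78.6 and 67.4 in Control samples 1 to 3 and 984, 538 and 193 in BRG1 samples 1 to 3. Every BRG1 sample was above every Control sample, and BRG1 sample 3 was the lowest of its group. On the log2 scale the change was 3.11 (SE 0.51, DESeq2 adjusted p 2.0e-08, edgeR adjusted p 0.00888), a fold of 8.66 with a 95% interval from 4.35 to 17.2. LIF rose 18.8, 6.85 and 2.86-fold within replicate numbers, and without BRG1 replicate 1 the log2 fold change was 2.47. OSM, which encodes oncostatin M and lies beside LIF on chromosome 22 from 30262829 to 30266851, is named for that position and not for its values. Its normalised counts were between 0 and 1.51 in Control samples and 5.08, 2.49 and 0 in BRG1 samples, too few for an adjusted p.

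CLCF1 encodes cardiotrophin-like cytokine factor 1, a ligand of the ciliary neurotrophic factor receptor. The gene spans 67364168 to 67374177 on chromosome 11, minus strand. Normalised counts were 60.9, 79.7 and 40.9 in Control and 609, 340 and 140 in BRG1 samples 1 to 3, again with no overlap and with BRG1 sample 3 lowest. CLCF1 thus rose by 2.59 on the log2 scale (SE 0.51, DESeq2 adjusted p 5.9e-06, edgeR adjusted p 0.0181). The fold was 9.99, 4.26 and 3.43 within replicate numbers, and without BRG1 replicate 1 the log2 fold change was 2.00.

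IL11, a cytokine with roles in bone and in fibrosis, showed a smaller difference that did not pass the test. Its position is 55364382 to 55370463 on chromosome 19, minus strand. The 3 Control samples held 97.5, 84.4 and 87.8 normalised counts and the 3 BRG1 samples 136, 152 and 103. The groups did not overlap, as was the case for 16.7% of all tested genes in this direction, and the log2 fold change was 0.55 with a 95% interval from 3.4e-05 to 1.09 (DESeq2 adjusted p 0.242, edgeR adjusted p 0.332). A fold above 2.13 was thus outside the interval for IL11, while the lower bounds for LIF and CLCF1 were 4.35 and 3.03. The difference between these folds was not tested.

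The bases before the RefSeq start of IL11 are shown for contrast, as the ligand that was not called. They span chr19:55370464-55370713 and are printed 5′ to 3′ on the minus strand. The capitals mark the match at position -96 to TGANTCA, the AP-1 pattern.

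IL11: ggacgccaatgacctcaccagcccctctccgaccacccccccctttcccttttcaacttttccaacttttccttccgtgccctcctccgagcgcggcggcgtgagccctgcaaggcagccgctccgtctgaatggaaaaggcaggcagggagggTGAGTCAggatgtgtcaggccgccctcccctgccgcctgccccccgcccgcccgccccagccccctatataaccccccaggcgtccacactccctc

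The patterns of 3 factors were searched on both strands in the RefSeq promoter windows, which reach from 250 bases before to 50 bases after each start. LIF and CLCF1 had no entry, and the other 8 members had 11 windows between them. The STAT pattern TTCNNNGAA was found in 2 of the 3 windows of LIFR, at positions -165 and -182, and in 7.66% of all 35116 windows. The AP-1 pattern TGANTCA was found in IL11, at position 38 after the start of IL6R and at position 4 after that of OSMR, and in 7.71% of all windows. The NF-kappaB pattern was found in IL6 and in 1.40% of all windows. The windows of IL6ST, STAT3 and SOCS3 held none of the 3, and no window held more than 1 match. The RefSeq starts of IL6, LIFR and SOCS3 differ from the outer gene ends that GENCODE gives. The bases before those ends, 78360077 for SOCS3, were not searched, so the lack of a match in SOCS3 covers its RefSeq windows only. Of the members called higher only IL6 has a window, so the patterns cannot be compared between called and other members.

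The 3 called ligands varied more among BRG1 samples than most called genes. The coefficient of variation over BRG1 samples was 133% for IL6, 69.4% for LIF and 64.8% for CLCF1, against a median of 37.1% over the 1764 genes called higher. In all 3 the order was BRG1 sample 1, then 2, then 3, which was also the order in 68.4% of all genes called higher. SMARCA4 was highest in BRG1 sample 1 and nearly equal in samples 2 and 3. By fold change among the genes called higher, IL6 ranked 238, LIF 836 and CLCF1 950.

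The genes most like each called ligand over the 6 samples were found by Pearson correlation of log2(normalised count + 1) among 11686 genes with a mean of at least 100. They were SORBS3, C9orf3 and CALM2 for IL6 (r from 0.991 to 0.994), DGKI, SUGCT and B4GALT4 for LIF (r from 0.997 to 0.998) and DLGAP4, NT5C2 and DDAH1 for CLCF1 (all r 0.998). All 9 genes were called higher, which follows largely from picking them by likeness to ligands that were themselves called. Between the ligands, r was 0.990 for IL6 and LIF, 0.974 for IL6 and CLCF1 and 0.979 for LIF and CLCF1. These values rest on 3 samples in each of 2 groups that differ in level.

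None of the 4 receptor chains was called without the block (0 genes, also by edgeR and limma-voom). DESeq2 called 11.0% of all tested genes higher and 1.84% lower, so 0 of 4 does not set the receptor chains apart. IL6R, the chain specific for IL6, was scarce. The gene is on chromosome 1 (154405193 to 154469450, plus strand), and its normalised counts were 2.44, 34.0 and 21.2 in Control and 67.5, 75.6 and 28.4 in BRG1 samples 1 to 3. The groups overlapped. IL6R had a log2 fold change of 1.57 with a 95% interval from 0.04 to 3.11 (DESeq2 adjusted p 0.223, edgeR adjusted p 0.289). Control sample 1 held 2 estimated counts, and within replicate 1 the fold was 27.7 with an exact 95% counting interval from 7.45 to 232, against 2.22 and 1.34 in replicates 2 and 3.

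IL6ST, which encodes gp130, was abundant and nearly level between groups. The gene is on chromosome 5 (55935095 to 55995022, minus strand). Control samples held 5598, 4269 and 4157 normalised counts and BRG1 samples 5900, 6013 and 4021. The ranges overlapped, the log2 fold change was 0.18 with a 95% interval from -0.25 to 0.62, and the DESeq2 adjusted p was 0.763. A change of gp130 messenger RNA above 1.54-fold was thus outside the interval.

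LIFR, the receptor chain for LIF, was the 1 member with a fold change below 0. The gene is also on chromosome 5 (38474668 to 38608354, minus strand). Normalised counts were 6349, 7204 and 5459 in Control and 4011, 5196 and 5330 in BRG1 samples 1 to 3. Every BRG1 sample was below every Control sample, as in 9.92% of all tested genes, though BRG1 sample 3 and Control sample 3 were close, with a fold of 0.976. LIFR had a log2 fold change of -0.39 with a 95% interval from -0.75 to -0.02, and the call was not made (DESeq2 adjusted p 0.200). With the replicate number as a block, LIFR was called lower by DESeq2 (adjusted p 0.0304) but not by edgeR (adjusted p 0.0766). LIFR was therefore lower in every pair, while the call depended on the tool.

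OSMR, a receptor chain for oncostatin M, neighbours LIFR on chromosome 5 (38845858 to 38945596, plus strand). Its normalised counts were 5239, 6285 and 5648 in Control and 6758, 7499 and 6210 in BRG1 samples 1 to 3, and the groups overlapped. For OSMR the log2 fold change was 0.25 with a 95% interval from -0.04 to 0.54 (DESeq2 adjusted p 0.350), and the block did not change the call (DESeq2 adjusted p 0.0548, edgeR adjusted p 0.0771). The fold within replicate numbers was 1.29, 1.19 and 1.10, so OSMR and LIFR had opposite signs in every pair. The difference between them was not tested.

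**Figure D2:**
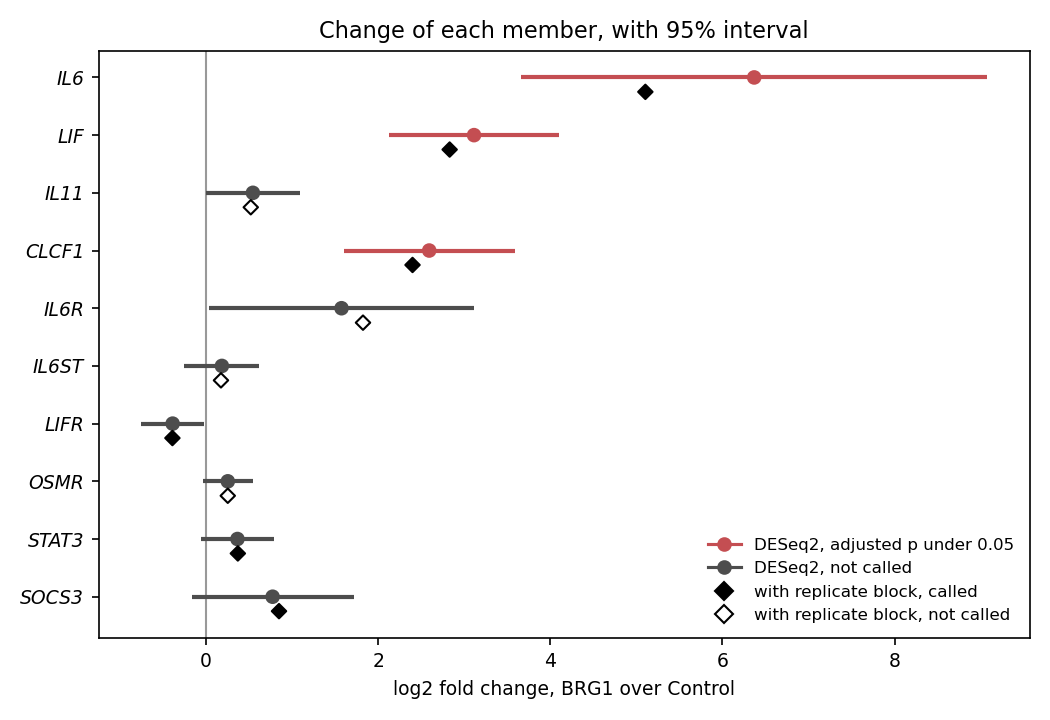
Log2 fold change of BRG1 over Control (horizontal axis) for the 10 members. Circles with lines give the DESeq2 value and its 95% interval, red where called, and diamonds give the fit with the replicate block, filled where called. IL6 at 6.37, LIF at 3.11 and CLCF1 at 2.59 stand apart from 0, and the block turns STAT3, SOCS3 and LIFR into called genes without moving their values by much.

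STAT3, the transcription factor through which the family acts, is on chromosome 17 (42313324 to 42388540, minus strand). Control samples held 14114, 13576 and 9643 normalised counts and BRG1 samples 17829, 17403 and 12858. The groups overlapped because both samples numbered 3 were low. The log2 fold change was 0.37 with a 95% interval from -0.06 to 0.79, and without the block STAT3 was not called (DESeq2 adjusted p 0.364, edgeR adjusted p 0.352). Each BRG1 sample nevertheless exceeded the Control sample of its own number, by 1.26, 1.28 and 1.33-fold. With the replicate block the log2 fold change was again 0.37 and STAT3 was called higher by both tools (DESeq2 adjusted p 1.6e-04, edgeR adjusted p 0.0201).

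SOCS3, the feedback inhibitor that binds gp130 and JAK kinases, is on chromosome 17 as well (78356778 to 78360077, minus strand). Its normalised counts were 912, 518 and 242 in Control and 1364, 989 and 503 in BRG1 samples 1 to 3. Numbers 1 were high and numbers 3 low in both groups, and the groups overlapped. The log2 fold change of 0.77, with a 95% interval from -0.17 to 1.71, was not called (DESeq2 adjusted p 0.392, edgeR adjusted p 0.482). The fold was 1.49, 1.91 and 2.08 within replicate numbers. With the replicate block the log2 fold change was 0.85 and SOCS3 was called higher (DESeq2 adjusted p 1.1e-05, edgeR adjusted p 0.00602). The blocked fits thus called 5 of 10 members higher with either tool, against 13.4% of all tested genes for DESeq2 and 13.7% for edgeR, and 1 lower with DESeq2, against 6.62%, or 0 with edgeR, against 5.68%. At an unadjusted p under 0.05 the blocked edgeR fit had 1 member lower, against 15.6% of its genes.

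Levels were then compared between genes as estimated counts per kilobase of the canonical GENCODE transcript, scaled to the same library total (cpm per kilobase). In Control, STAT3 was the most abundant at 55.0 ± 10.8 (SD, n = 3), followed by OSMR at 22.5 ± 2.07, LIFR at 13.1 ± 1.80, IL6ST at 11.3 ± 1.93 and SOCS3 at 4.44 ± 2.68. IL11 at 0.822 ± 0.0618, CLCF1 at 0.772 ± 0.248 and LIF at 0.371 ± 0.0738 were lower, and IL6 and IL6R were lowest at 0.0726 ± 0.0574 and 0.0725 ± 0.0599. The ranges of LIFR and IL6ST, of IL11 and CLCF1 and of IL6 and IL6R overlapped, so their order is not established, and no other neighbours in this order overlapped. Control cells thus held more messenger RNA for STAT3 and for the receptor chains OSMR, LIFR and IL6ST than for any of the 4 ligands.

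In BRG1 samples STAT3 (70.8 ± 12.2) and OSMR (26.9 ± 2.55) remained the highest by mean level per length, and IL6R (0.216 ± 0.0953) remained the lowest. IL6 reached 5.97 ± 7.94, CLCF1 4.63 ± 3.00 and LIF 3.21 ± 2.23, above IL11 at 1.19 ± 0.228 by mean. The range of IL6 over BRG1 samples, from 0.576 to 15.1, overlapped those of LIFR, IL6ST, SOCS3, CLCF1, LIF and IL11, so their order with BRG1 is not established. IL6 depends most on the length used, since GENCODE gives a canonical transcript of 1127 bases but 4321 exonic bases in all, with which its mean in BRG1 samples would be 1.56.

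**Figure D3:**
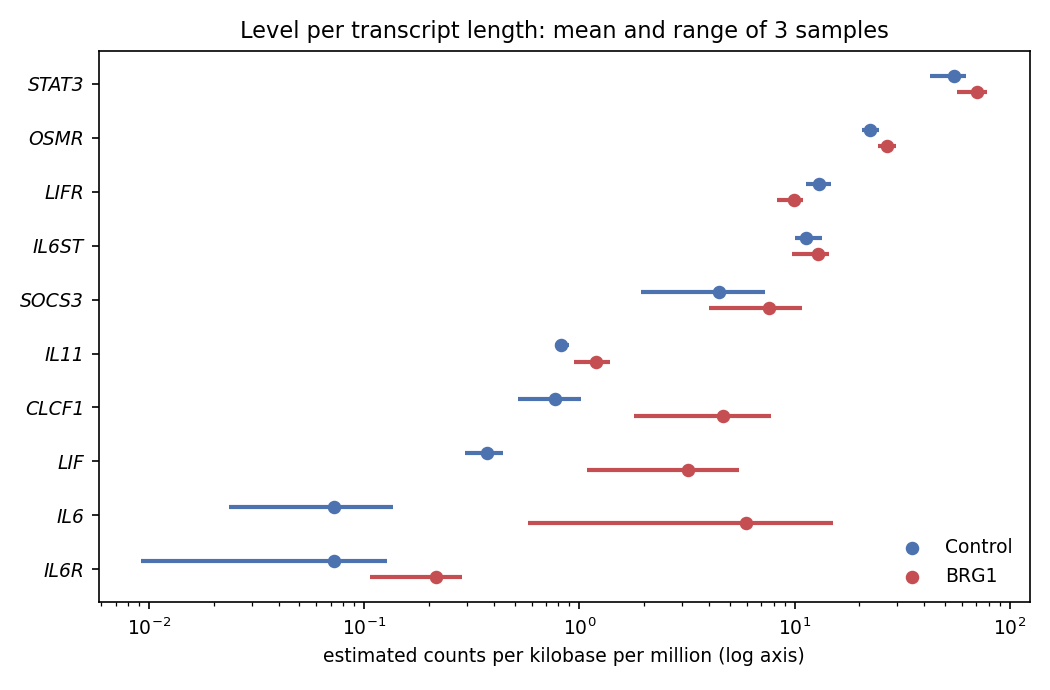
Level of each member in cpm per kilobase (horizontal axis, logarithmic), using the canonical transcript length. Points are means and lines run from the lowest to the highest of 3 samples, Control in blue and BRG1 in red. STAT3 and 3 of the receptor chains lie above 8 in all samples, IL6R lies below 0.3, and IL6, LIF and CLCF1 span wide ranges in BRG1 samples.

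The rest of the family and pathway was described with a list of 26 further genes. DESeq2 and edgeR each called 3 of them higher, a share near the 11.0% and 9.57% of all tested genes. Both called 0 lower, against 1.84% and 1.02%. At an unadjusted DESeq2 p under 0.05, 5 were higher, against 13.4% of all genes with a p, and 0 were lower, against 4.89%. Their log2 fold changes had a median of 0.10 (between 0.0075 without Control replicate 3 and 0.17 without BRG1 replicate 3), or 0.04 over 22 genes with those at the floor of 3 counts left out or set to their bound. EBI3, the secreted subunit shared by interleukin-27 and interleukin-35, rose by 3.94 on the log2 scale, from 11.2 ± 4.53 normalised counts to 167 ± 93.4 (SD, n = 3; DESeq2 adjusted p 1.5e-10, edgeR adjusted p 0.00349). IL27, its partner in interleukin-27, had 0 counts in all samples. CNTFR, the ciliary neurotrophic factor receptor that CLCF1 also binds, rose from 5.71 ± 1.61 to 31.6 ± 10.4 (SD, n = 3; DESeq2 adjusted p 0.00275, edgeR adjusted p 0.0128). SOCS1, another feedback inhibitor of JAK kinases, rose from 12.2 ± 2.83 to 45.2 ± 12.6 (SD, n = 3; DESeq2 adjusted p 0.00276), and its call was lost without BRG1 replicate 1 (adjusted p 0.110) or BRG1 replicate 2 (adjusted p 0.0633).

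Among the most abundant genes of the list were a kinase and 2 adaptors, and none of the 3 was called without the block. JAK1, the kinase, had a log2 fold change of 0.51, with 4350 ± 348 normalised counts in Control against 6189 ± 1442 with BRG1 (SD, n = 3; DESeq2 adjusted p 0.101). It was called with the block (DESeq2 adjusted p 0.00450, edgeR adjusted p 0.0311) and without BRG1 replicate 3 (DESeq2 adjusted p 9.2e-04). The adaptors GRB2 and PTPN11 had log2 fold changes of -0.20 and -0.19 and were not called (DESeq2 adjusted p 0.561 and 0.690).

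Known STAT3 target genes were described with a list of 21 genes. All 21 had a log2 fold change above 0, with a median of 0.46. Of all 18096 genes with a fold change, 9034 were above 0, and their median was -0.001. Without Control replicate 3, 17 of the 21 were above 0, with a median of 0.29. Without BRG1 replicate 2, 19 of the 21 were above 0. DESeq2 called 6 of them higher, against 11.0% of all tested genes, and edgeR called 3 of the 20 it tested, against 9.57%. The number called lower was 0 with both tools, against 1.84% of all tested genes for DESeq2 and 1.02% for edgeR. At an unadjusted DESeq2 p under 0.05, 8 were higher, against 13.4% of all genes with a p, and 0 were lower, against 4.89%. NNMT, a nicotinamide methyltransferase, rose from 71.4 ± 32.8 to 2518 ± 1216 normalised counts (SD, n = 3), CCND1, which encodes cyclin D1, from 1039 ± 549 to 7080 ± 4400, and BCL2L1, which encodes the survival protein BCL-XL, from 2826 ± 254 to 10294 ± 3762. Their log2 fold changes were 5.15, 2.77 and 1.87 (edgeR adjusted p 5.9e-04, 0.0172 and 0.00233). Of the exonic bases of BCL2L1, 41.3% are shared with other genes, so its value is uncertain.

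HIF1A, TNFRSF1A and MUC1 were called without the block by DESeq2 but not by edgeR. HIF1A encodes an oxygen-regulated transcription factor, TNFRSF1A a receptor of tumor necrosis factor and MUC1 a membrane mucin. Their log2 fold changes were 0.99, 0.59 and 0.76 (DESeq2 adjusted p 0.0290, 0.0246 and 0.0325, edgeR adjusted p 0.121, 0.0737 and 0.131). With the replicate block edgeR called all 3 (adjusted p 0.0207, 0.00717 and 0.0432). HIF1A was not called in 5 of the 6 fits that left out a sample, MUC1 in 4 and TNFRSF1A in 3. MCL1, PIM1 and JUNB, the most abundant targets not called, showed log2 values of 0.21, 0.13 and 0.46.

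Under the replicate block the count of STAT3 target genes called higher was 13 with DESeq2 and 10 with edgeR, against 13.4% and 13.7% of all tested genes. IRF1, an interferon-induced transcription factor, FOS and CEBPD were among them and were chosen after their values were seen. IRF1 had 6400, 5760 and 570 normalised counts in Control and 14244, 16698 and 2233 in BRG1 samples 1 to 3, both samples numbered 3 being far below the others, and 22.9% of its exonic bases are shared with other genes. Its fold within replicate numbers was 2.23, 2.90 and 3.92, and its edgeR adjusted p moved from 0.487 to 5.7e-04 with the block. For FOS and CEBPD the blocked edgeR adjusted p was 0.0120 and 0.0219.

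Acute phase genes, many of which IL6 and STAT3 are known to induce in liver, were described with a list of 16 genes. DESeq2 called 7 of them higher and 1 lower, against 11.0% and 1.84% of all tested genes, and edgeR 6 and 1, against 9.57% and 1.02%. The median of the 15 genes with a fold was 2.09 on the log2 scale. That is the value of LBP, which had 4 counts or fewer in every library, so it does not measure a shift of the list. With genes at the floor left out or set to their bound, the median was 2.91 over 12 genes. Genes at the floor in Control stayed in it only where the BRG1 mean was above the floor, which raises it. No median of all genes by this rule was taken. SERPINA3, a protease inhibitor, rose from 9.31 ± 7.48 to 3087 ± 900 normalised counts (SD, n = 3), and C3, the central complement component, from 9.85 ± 2.81 to 1054 ± 816, log2 fold changes of 8.45 and 6.72 (edgeR adjusted p 9.6e-05 and 0.00110). For SERPINA3 the log2 value was 9.33 without Control replicate 2, and for C3 it was 5.95 without BRG1 replicate 1. Of the exonic bases of SERPINA3, 31.7% are shared with other genes.

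For the other 5 higher calls every Control library held 3 counts or fewer. The mean of the BRG1 samples was therefore set against that floor of 3 counts per library. Such folds are lower bounds for the ratio of the sample means only, and they leave out the spread among BRG1 samples. LCN2, an iron-sequestering protein, was at least 35.7-fold higher and CRP, C-reactive protein, at least 14.5-fold higher. SAA1 and SAA2, the serum amyloid A genes, were at least 27.9-fold and 33.4-fold higher, but reads of these nearly identical genes may have been divided wrongly between them. HP, haptoglobin, was at least 3.89-fold higher, was not tested by edgeR for lack of counts, and was not called with the replicate block (DESeq2 adjusted p 0.0776) or in 5 of the 6 fits that left out a sample. CRP had 0 counts in each Control library and 74.7, 49.0 and 13.4 normalised counts in BRG1 samples 1 to 3. The BRG1 samples held 173, 68.1 and 22.4 for SAA1 and 171, 117 and 49.3 for LCN2. BRG1 sample 3 was lowest in each, as for IL6, LIF and CLCF1. The order of BRG1 sample 1, then 2, then 3 was also that of 68.4% of all genes called higher.

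Not all genes placed on the acute phase list moved together. A2M, a protease inhibitor abundant in these cells, was lower with BRG1, at 19067 ± 1695 normalised counts against 36874 ± 11022 in Control (SD, n = 3; DESeq2 adjusted p 0.00130, edgeR adjusted p 0.0271). The log2 value was -0.95. The fibrinogen genes FGG and FGA and the copper carrier CP were not called, with log2 fold changes of -0.36, 0.17 and 0.84 (DESeq2 adjusted p 0.329, 0.864 and 0.323). FGG was called lower without BRG1 replicate 3 (DESeq2 adjusted p 0.0360).

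**Figure D4:**
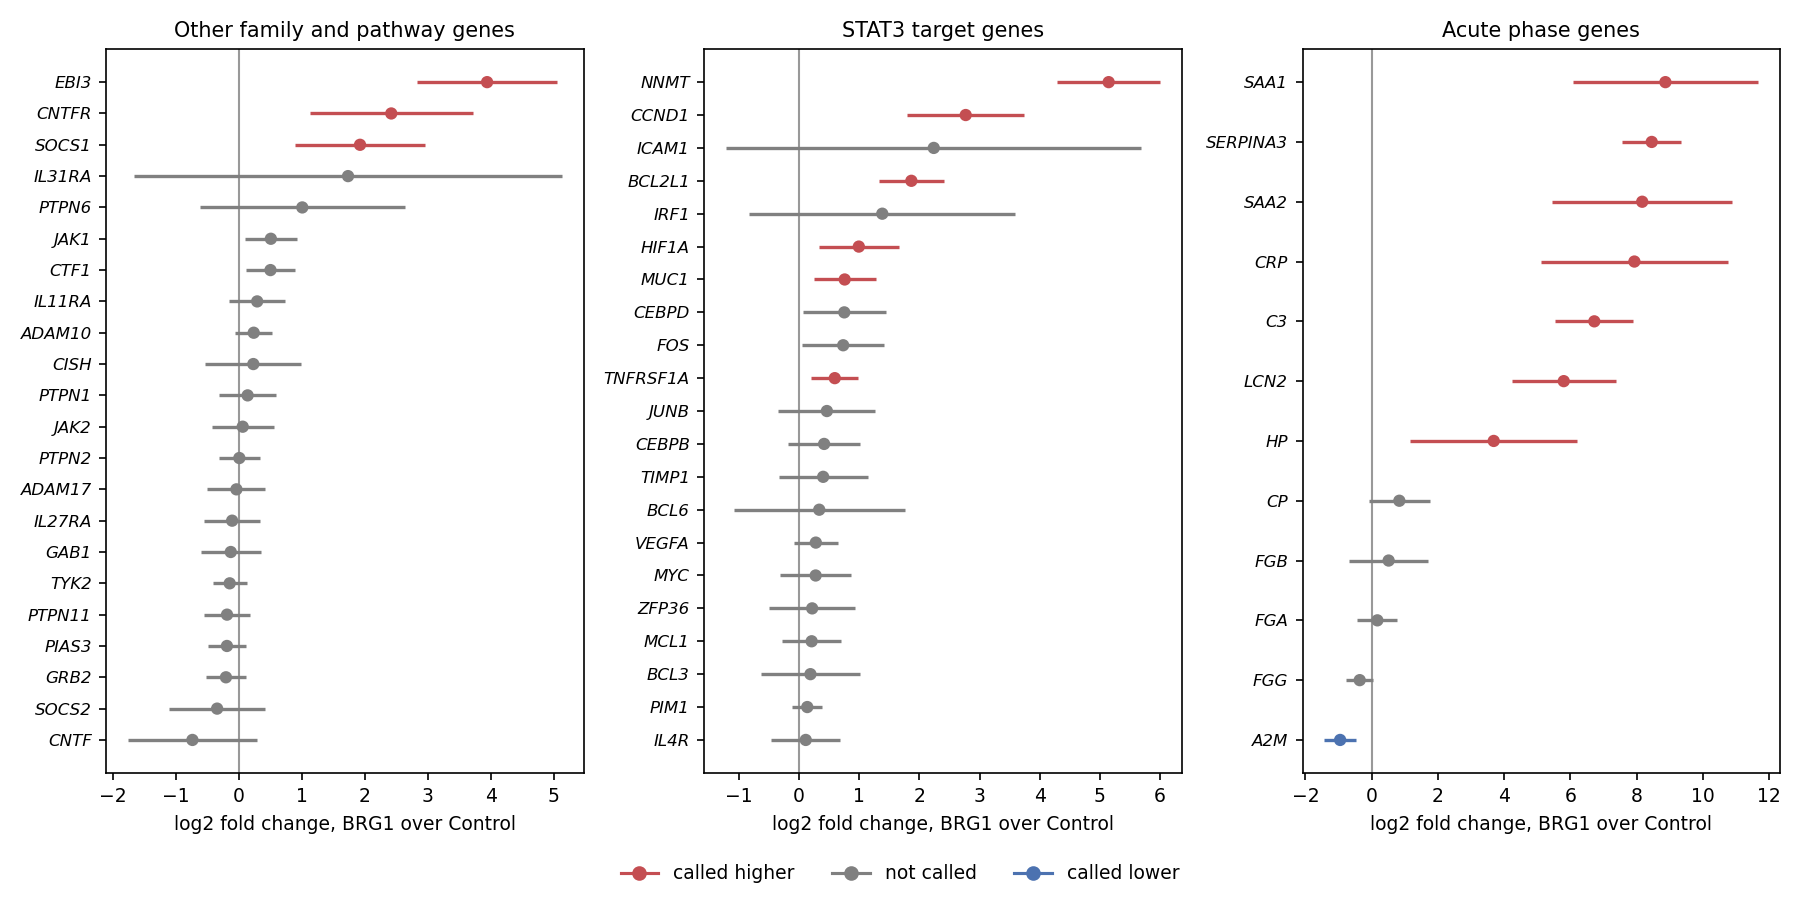
Log2 fold change of BRG1 over Control (horizontal axes, with different scales) with 95% intervals for 22 of the 23 family and pathway genes and all STAT3 target and acute phase genes that had a DESeq2 adjusted p, red where called higher, blue where called lower and grey otherwise. EBI3, CNTFR and SOCS1 are the family and pathway genes called, all 21 STAT3 target genes lie above 0, and among 12 acute phase genes 7 are called higher and A2M is called lower. For genes at the floor in Control the plotted value depends on the fit and is not a bound.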

How the data were processed

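RNA was sequenced from 6 samples as poly(A) libraries that do not keep strand, from 500 ng of RNA, with read pairs of 78 bases. The authors aligned reads with STAR (2.5.3a) to hg38, quantified them with salmon (0.8.2) and used tximport to sum transcripts by gene. What they deposited is a table of estimated counts by symbol, scaled by transcript length and library size (lengthScaledTPM). Overlapping or near-identical genes and antisense transcripts can share reads.

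Estimated counts were rounded, and 18096 of 19899 genes had a count. BRG1 was compared with Control by DESeq2 (1.42.0, R 4.3.3), which the study's methods name, with median-ratio size factors and independent filtering. All 10 members kept an adjusted p. The edgeR (4.0.16) quasi-likelihood test is given beside it because, when tested on simulated data, DESeq2 called unchanged genes at a higher rate than the threshold allows, more so than edgeR. The limma-voom test (limma 3.58.1), TMM size factors, filters on low counts, a threshold of 0.01, a replicate block and leaving out each sample were alternatives. Intervals cover 95%. Exact counting intervals and floors cover counting error only.

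The design text gives 3 biological replicates, and the labels number them without saying that a number marks a shared batch. Samples with the same number deviated together from their group means over 14220 genes (r 0.546, 0.578 and 0.626 for numbers 1 to 3), so the numbers were taken as pairs.

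The members and lists were chosen with earlier results of these data known. Named were all members, every called gene of the other lists and the 3 most abundant uncalled ones in each, SMARCA4 and SMARCA2, and the 3 genes most like each called member. Other genes named were chosen afterwards for their position, their partners or their values. Some genes of the lists are counted in the totals but are not reported here. Coordinates and lengths come from GENCODE release 44, the study having used an earlier release, and promoter sequences from RefSeq (GRCh38.p14).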

Additional observations from a re-analysis of the deposited data

How the results depend on the processing

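Over 14 alternatives for each of the 10 members, 0 of 140 log2 fold changes reversed and 134 stayed on the same side of the threshold. The call of IL6 was lost once, under limma-voom, and calls were gained with the replicate block by STAT3 and SOCS3 (both tools) and LIFR (DESeq2). The paired fits changed no other call of a member. Members called higher (3) were 5 with the replicate block under DESeq2 and 5 under edgeR, and members called lower (0) were 1 with the block under DESeq2. Leaving out any 1 sample kept the counts at 3 and 0. STAT3 target genes called higher (6) were 3 at an adjusted p under 0.01, 3 with edgeR, 3 with limma-voom, 13 with the replicate block in DESeq2 and 10 with it in edgeR. Leaving out a sample gave 4 to 6. For acute phase genes called lower (1) the range was 1 to 2, with 2 when BRG1 replicate 3 was left out. All genes called lower (294) were 130 at an adjusted p under 0.01, 146 with edgeR, 169 with limma-voom, 1035 with the replicate block in DESeq2 and 809 with it in edgeR. Leaving out BRG1 replicate 2 gave the lowest count, 117, and leaving out BRG1 replicate 3 the highest, 596. The cause was not tested. IL6 and IL6R in Control rest on few counts, which limits their folds.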
